A study of Rattus norvegicus with 16 samples.

Results

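The m6A-modified and unmodified circRNA fractions were compared within each rat of the MT group, in 4 pairs of IP and SUP samples. The members were the circRNAs whose IP and SUP signals were both well above background on all 4 MT arrays. They numbered 11273 of the 12893 circRNAs in the deposited table, or 87.4%. Adult male Sprague-Dawley rats of the MT group received 10 μg of morphine hydrochloride in 10 μl by intrathecal injection each morning and evening for 7 days. The NS group received 10 μl of saline on the same schedule and is used here only for comparison, with 4 rats in each group. Total RNA of the lumbar spinal cord (L4 to L6) was divided with an anti-m6A antibody into the bound fraction (IP) and the fraction left in the supernatant (SUP). The SUP samples carry the word input in one label, whereas the protocol describes supernatant RNA. Both fractions were treated with RNase R, an exonuclease that digests linear RNA, and each rat's fractions were hybridized together to 1 array. IP was always labeled with Cy5 and SUP with Cy3, so dye and fraction cannot be told apart.

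CircRNAs are closed loops made when a downstream splice donor joins an upstream splice acceptor, and they are abundant in neural tissue. N6-methyladenosine (m6A) is laid down by a writer complex containing METTL3 and METTL14 and removed by FTO or ALKBH5. It is read by YTH-domain proteins, and in circRNAs it has been tied to translation and decay. An antibody to m6A enriches molecules that carry the mark, so the ratio of IP to SUP orders circRNAs by how far they went into the bound fraction. The ratio is not a count of methylated adenosines. Whole tissue was used, so a change of cell composition and a change within cells cannot be told apart.

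One listed circRNA described below, rno_circRNA_012088 from the Mkln1 gene, has designed qPCR primers, which are shown because they give the study's own assay for it. They identify the listed circRNA, and the array probe was paired with it by its values and not by sequence. Both are 20 bases long, with a GC content of 55% and 50%, respectively, and are written 5′ to 3′.
rno_circRNA_012088 forward: ttgtttggtggctgggatgg
rno_circRNA_012088 reverse: agcaggcctttcaagcttca

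All 8 arrays lay on 1 slide, with the MT arrays in one row and the NS arrays in the other, so position and group cannot be told apart. Over all 14145 circRNA probes, the median processed intensity on the MT arrays was between 295 and 522 in IP and between 314 and 559 in SUP. MT replicate 4 was the dimmest in both channels, and 83.7% of its IP probes were well above background, against 89.1% to 92.8% on the other MT arrays. No circRNA probe was saturated. The labelled tissue could not be checked. Cell type markers among host genes could not be used, and the gene probes well above background in both fractions on all 4 MT arrays included the neuronal genes Map2 and Dlg4 but also Cyp2e1, known mainly from liver, whereas Cdh2, which encodes N-cadherin, was not among them. Of the 1620 circRNAs that were not members, 1008 were lost through IP alone, 273 through SUP alone and 339 through both. MT replicate 4 alone removed 769 of them, replicate 2 alone 184, replicate 1 alone 24 and replicate 3 alone 9. The detection mark had no single intensity limit. In IP of MT replicate 4, the dimmest circRNA well above background had an intensity of 46.6, and the brightest one below had 54.4.

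CircRNAs divided between the fractions over a wide range in every rat. On the deposited log2 scale, the median of log2 IP minus log2 SUP over the members was −0.36, −0.51, 0.01 and −0.09 in MT replicates 1 to 4. Replicates 1 and 2 were therefore lower than replicates 3 and 4, and the mean was −0.24 ± 0.24 (SD, n = 4). An exact two-sided sign-flip test over the 4 arrays gave p = 0.25, and the smallest p this design allows is 0.13. The sign is set by scaling as well, because the mean of the medians was 0.30 when the 75th percentile of each channel was set equal. Expressed as the m6A level, which is IP as a percentage of IP plus SUP, the median circRNA stood at 43.8%, 41.3%, 50.2% and 48.4%. Its mean was 45.9% ± 4.08 (SD, n = 4). The share of members with a level above 50% ran from 29.2% in replicate 2 to 50.4% in replicate 3. That share moved with the array median.

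The spread around the median was large on each array and longer toward SUP. The SD over the members was 1.39, 1.25, 1.30 and 1.55 log2 in MT replicates 1 to 4, with a mean of 1.37 ± 0.13 (SD, n = 4). Replicate 4 had the widest spread and replicate 2 the narrowest. Between the 10th and the 90th percentile lay 3.55, 3.12, 3.32 and 3.93 log2. This corresponds to an 8.68-fold range of IP over SUP on replicate 2 and a 15.3-fold range on replicate 4. The lower side was longer than the upper on all 4 arrays. The distance from the median to the 10th percentile was 2.25 ± 0.23 log2 (SD, n = 4), and that to the 90th percentile was 1.23 ± 0.13 log2. At the extremes, ratios reached from −8.17 to 3.82 log2 across the 4 arrays.

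**Figure D1:**
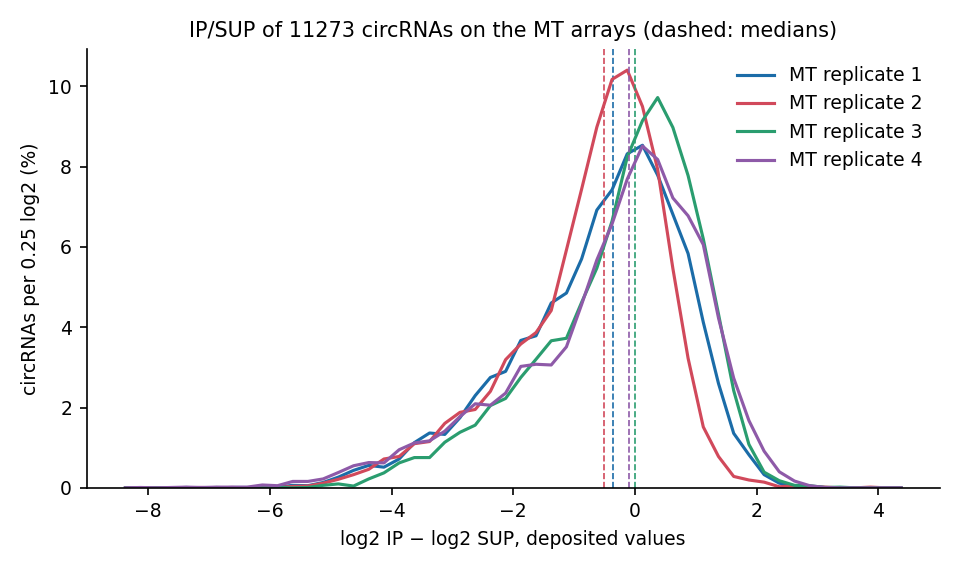
Share of the 11273 circRNAs (%) in steps of 0.25 log2 of the deposited log2 IP minus log2 SUP, with a line for each MT array and a dashed line at its median. The curves have similar shapes with a longer tail toward SUP, and their medians lie between −0.51 and 0.01.

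By the mean m6A level over the 4 rats, most members lay in the middle of the scale. Levels of 25% to 50% were found for 4422 members and of 50% to 75% for 4519, which are 39.2% and 40.1% of all. A level of 10% to 25% was found for 1671 members, and a level under 10% for 527, or 4.67%. A level of 75% or more was found for 134 members, or 1.19%. Only 7.46% of these 134 were in that class in all 4 rats, against 63.4% of those under 10% and 42.0% to 45.8% of those in the 3 classes between. These levels were on the deposited scale, where the 90th percentile ran from 59.8% in replicate 2 to 70.5% in replicate 4. A shift of a whole array moves circRNAs across a fixed limit, so these shares do not measure consistency alone. Members under 10% differed from the rest mainly in SUP, with a median log2 SUP of −0.81 against −3.58 at levels of 25% to 50% and −6.04 at 75% or more. The median log2 IP varied less and in no steady order, at −4.69 under 10%, −5.22 at 10% to 25%, −4.30 at 25% to 50%, −3.76 at 50% to 75% and −4.18 at 75% or more. Across members, which share an array, its dyes and its scaling, the ratio correlated with log2 SUP at r = −0.44 to −0.40 and with log2 IP at r = 0.16 to 0.25. The ratio contains both terms, so these are descriptions only. IP and SUP themselves correlated at r = 0.78 to 0.84 on each array.

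Levels on the log2 scale depend on the constants of each channel, and further values are therefore relative, meaning log2 IP minus log2 SUP less the array's median over the members. The test was limma on the relative value of the 4 rats, at an adjusted p under 0.05 (Benjamini-Hochberg over all 12893 circRNAs) and a fold of at least 1.5. Of the members, 3116 (27.6%) were called higher than the array median and 3630 (32.2%) were called lower. In the whole table these shares were 26.9% and 33.3%, and since the members make up 87.4% of it, the closeness of the shares says nothing about them. Those called lower were farther from the median, by a median of 1.62 log2, against 1.03 log2 for those called higher. A relative value beyond 2 log2 was reached by 1324 circRNAs called lower and by 78 called higher, and one beyond 3 log2 by 515 and 1, respectively. Of the calls, 3089 of 3116 and 3604 of 3630 were on the same side of the median in all 4 rats, against 78.7% of all members. The calls were made on the same 4 values, so this follows largely from the call and is not separate evidence of consistency. With normexp (offset 50) on the median spot signal and scaling by the named spike-in probes, 2738 of the 3630 lower calls remained, but only 1112 of the 3116 higher calls, and none was called in the opposite direction. In all, normexp called 2179 members higher and 2754 lower, and 51.0% and 99.4% of these were also called in the main setting. This setting changed the spot statistic, the background and the offset together, and the offset by itself compresses ratios, so the part of each was not tested.

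Without centring on the array median, 2274 members (20.2%) were called with IP higher and 4364 (38.7%) with SUP higher, again by limma with the same threshold. In the whole table the shares were 20.2% and 40.5%. This split depended on scaling. With the 75th percentile of each channel it was 4378 with IP higher and 2947 with SUP higher, and with the named spike-in probes it was 1202 and 5311. Regardless of size or test, 2736 members (24.3%) had IP above SUP in all 4 rats on the deposited scale, 4998 (44.3%) had SUP above IP, and 3539 (31.4%) were divided. All circRNAs of an array share its offset, and limma borrowed 15.7 prior degrees of freedom on this scale against 2.50 after centring, so p-values on the deposited scale are not given.

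The order of the circRNAs was largely kept between rats. Across members, Pearson's r of log2 IP minus log2 SUP for the 6 pairs of MT arrays was between 0.865 and 0.964, with a mean of 0.922, and Spearman's rho was between 0.837 and 0.952. CircRNAs are not independent replicates, and these values are descriptions. The closest pair was replicates 2 and 3, and the most distant was replicates 2 and 4. Of the variance of the relative values, 91.2% lay between circRNAs. The SD over the 4 rats had a median of 0.28 log2, with 90% of members at or below 0.62 and a maximum of 2.29. As a measure of the arrays alone, spots of one probe within an MT array differed by a median SD of 0.058 to 0.067 log2 for spike-ins and 0.107 to 0.147 log2 for gene probes. Of the members, 8875 (78.7%) were on the same side of the array median in all 4 rats, 4383 above it and 4492 below it.

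**Figure D2:**
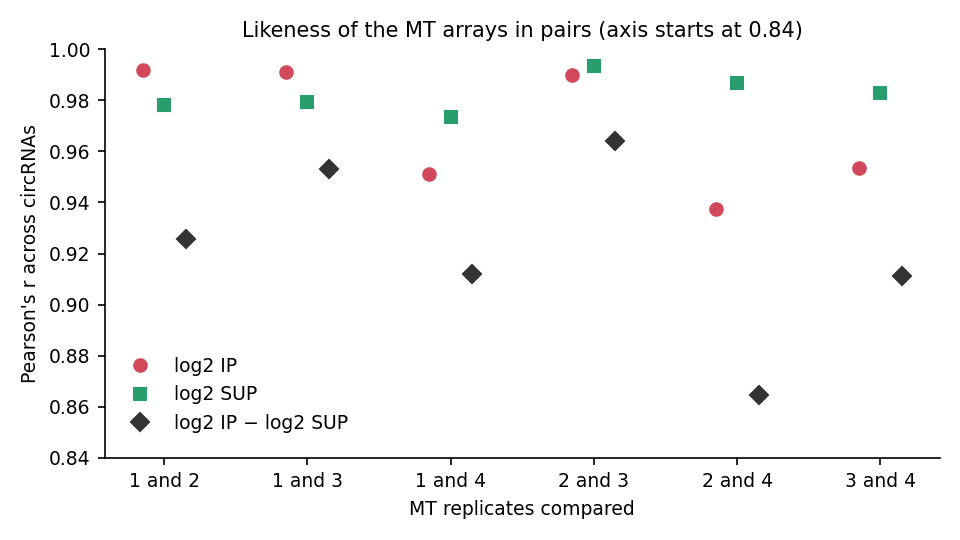
Pearson's r across the 11273 members for each of the 6 pairs of MT arrays, for log2 IP, log2 SUP and their difference, on an axis that starts at 0.84. The 3 pairs with replicate 4 are lower in IP (0.937 to 0.953) than the 3 without it (0.990 to 0.992), whereas SUP lies between 0.974 and 0.993 in all 6.

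The arrays shared more circRNAs at the low end of the order than at the high end, where the distribution was also shorter. The 1127 lowest members (10%) of each array were compared, and 760 (67.4%) were among them on all 4 arrays. Of the 1127 highest, 448 (39.8%) were. Without replicate 4 the shared counts were 867 and 625, respectively, and the low end still shared more. Leaving out any array can only raise such counts, and without another array they were 778 to 812 and 472 to 574. The SD between rats was taken over other and smaller sets, chosen by the mean m6A level on the deposited scale. Its median was 0.39 log2 for the 527 members under 10% and 0.35 log2 for the 134 at 75% or more.

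Replicate 4 accounted for much of the disagreement. It was the array farthest from the mean of the other 3 for 4665 members (41.4%), against 3042 for replicate 1, 2552 for replicate 2 and 1014 for replicate 3. Among the 1127 members with the largest SD, it was the farthest for 810 (71.9%). In 643 of these 810 its relative value was lower than in the other rats, and in 718 its IP was farther from the others than its SUP. Their median relative value was −0.48 over replicates 1 to 3 and −1.91 in replicate 4. Replicate 4 was also the array with the lowest IP signal and detection, whose part in this result was not tested. Without it, the median SD between rats was 0.22 log2, and the circRNAs with an SD over 1 log2 numbered 42 instead of 266. They numbered 390 without replicate 1, 279 without replicate 2, and 430 without replicate 3, the array nearest to the others. Without replicate 4, 85.4% of members were on the same side in all remaining rats, against 80.0% to 82.7% without another rat. Leaving out any rat can only raise that share, which was 78.7% with all 4.

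Consistency moved with signal. With members ordered by mean log2 signal into 10 classes of equal size, the median SD between rats was 0.41 log2 in the dimmest class and 0.16 log2 in the brightest. The share on one side of the median in all 4 rats was 61.1% in the dimmest class, reached 85.9% in the eighth and was 76.4% in the brightest. The dimmest class also had the narrowest spread, with an SD of relative values of 0.85 log2 against 1.46 log2 in the seventh class. Members had to be well above background in both fractions, which limits how extreme the ratio of a dim member can be. The part of this filter in the values of the dimmest class was not tested. In the brightest class 3.37% of members were called higher and 30.1% were called lower, and its median relative value was −0.24 log2. Over all members the ratio correlated weakly with the mean signal on each array, at r = −0.14 to −0.10.

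**Figure D3:**
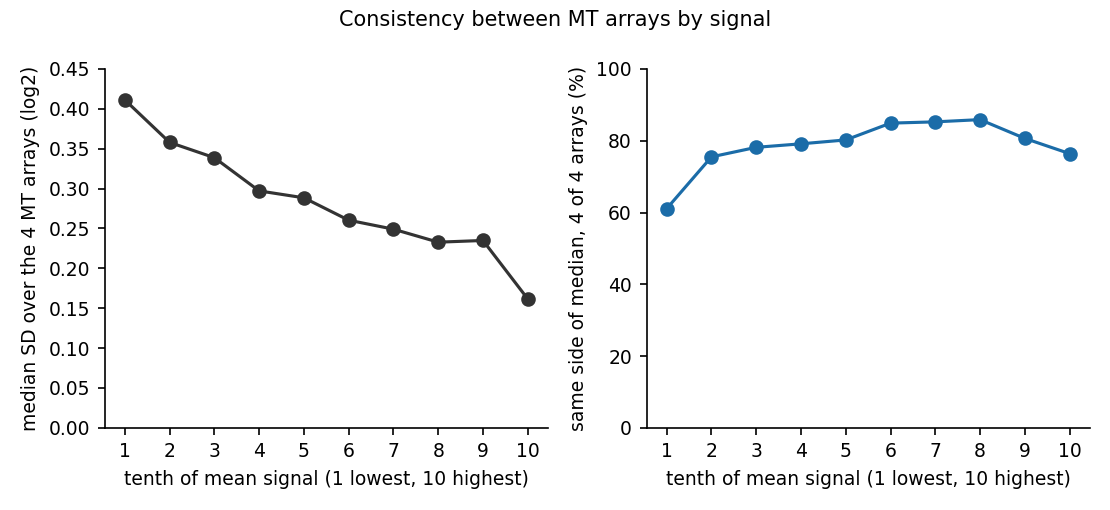
Median SD over the 4 MT arrays of the relative value (log2, left) and share of members on one side of the array median on all 4 arrays (%, right), for 10 classes of members by mean signal. The SD falls from 0.41 to 0.16 log2, and the share is lowest, at 61.1%, in the dimmest class.

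At the top of the order, the 10 members with the highest relative values among those called had means of 2.43 to 3.09 log2, m6A levels of 81.1% to 86.1% and adjusted p-values by limma of at most 0.0065. The files do not pair probes with host genes, so these are given by probe. The highest, ASCRPR009329, had log2 IP of −2.26, −2.07, −2.46 and −4.64 and log2 SUP of −4.99, −5.88, −5.93 and −6.04 in MT replicates 1 to 4. IP of replicate 4 was thus more than 2 log2 below the other rats, while SUP was not. Its m6A level was 86.9%, 93.4%, 91.7% and 72.4%, and its relative value was 3.09 ± 1.19 (SD, n = 4; adjusted p = 0.0019 by limma). ASCRPR013249 had relative values of 2.74, 4.33, 2.87 and 1.11 log2, again lowest in replicate 4, with a mean of 2.76 ± 1.31 (SD, n = 4; adjusted p = 0.0042 by limma). Replicate 4 gave the lowest value for 6 of the 10.

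At the bottom, the 10 lowest members had mean relative values of −7.23 to −5.29 log2 and m6A levels from 0.59% up to under 3%, with adjusted p-values by limma of at most 6.8e-04. The lowest, ASCRPR006435, had log2 IP of −4.99, −4.80, −4.93 and −5.88 and log2 SUP of 2.47, 2.44, 2.06 and 2.29. SUP exceeded IP by over 6 log2 in each rat. Its m6A level was 0.56%, 0.66%, 0.78% and 0.35%, and its relative value was −7.23 ± 0.59 (SD, n = 4; adjusted p = 4.3e-05 by limma). ASCRPR001879 had relative values of −6.23, −6.07, −5.94 and −7.18 log2, with a mean of −6.36 ± 0.56 (SD, n = 4; adjusted p = 4.3e-05 by limma). Replicate 4 gave the lowest value for all 10. All 20 of these circRNAs were chosen among called members. Their calls and their detection in every MT rat therefore follow from the choice, as do their low adjusted p-values. Their IP was also well above background on every NS array.

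The 3 most variable members were near the median on average and lowest in replicate 4. The one with the largest SD had relative values of 0.26, 1.52, 0.34 and −3.72 log2 (mean −0.40 ± 2.29, SD, n = 4). Its log2 IP was 4.21, 3.94, 3.64 and −0.28, and its log2 SUP was 4.31, 2.92, 3.29 and 3.53. The difference thus lay in IP of a single rat. None of the 3 was called with 4 rats. Without replicate 4, the other two were called higher, at 1.15 and 1.36 log2.

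The study names 20 circRNAs that differed in m6A quantity between the MT and NS groups, the 10 leading hypermethylated and 10 leading hypomethylated of a longer list, with host genes. Each was paired with 1 probe, and 8 were members, 7 of those listed as hypermethylated and 1 as hypomethylated. The list was chosen on these samples, so it is not independent evidence about the MT group. The other 12 were below background in IP or SUP on at least 1 MT array. The 7 listed as hypermethylated passed this filter through their IP in the MT group, since on the NS arrays IP was well above background in only 1 to 3 rats. All 8 lay on the SUP side of the array median in all 4 MT rats and all 8 were called lower, with a median relative value of −3.02 log2 against 0.01 log2 over all members. Of the whole table, 33.3% were called lower. This does not describe all 20. Of the 12 that were not members, whose values include signals below background, 4 were called higher, 3 were called lower and 5 were not called. The circRNAs of Rtf1 and Mga were among the 4, at 1.32 and 1.41 log2, with IP well above background in all 4 MT rats and SUP in 3 and 2 of them, so the filter left out listed circRNAs on the IP side.

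Host genes of these circRNAs have varied roles. For the Suclg2 circRNA (rno_circRNA_011473), whose gene encodes a subunit of mitochondrial succinyl-CoA ligase, log2 IP was −7.45, −7.23, −6.62 and −7.20 and log2 SUP was −2.99, −2.63, −2.80 and −3.39. SUP was higher by about 4 log2 in each rat. Its relative value was −3.93 ± 0.19 log2 (SD, n = 4) and its m6A level was 5.40% ± 1.44. The Ttc3 circRNA (rno_circRNA_002997), from a gene for an E3 ubiquitin ligase, had m6A levels of 1.98%, 2.21%, 2.99% and 3.42%. Only 0.16% of members lay below its relative value of −5.00 ± 0.22 log2 (SD, n = 4). The Shq1 circRNA (rno_circRNA_011501), from a gene needed to assemble H/ACA ribonucleoproteins, had m6A levels of 7.58%, 5.99%, 7.59% and 8.16%. Its relative value of −3.43 ± 0.15 log2 (SD, n = 4) varied the least of the 8.

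Mkln1 encodes muskelin, a subunit of the CTLH ubiquitin ligase complex, and gave 2 members. For rno_circRNA_012088, whose primers are shown above, log2 IP was −6.34, −6.79, −6.23 and −7.08 and log2 SUP was −1.20, −2.81, −2.93 and −3.14. SUP of replicate 1 was higher than in the other rats by over 1.5 log2, which IP did not match. Its relative values were −4.77, −3.47, −3.30 and −3.84 log2. For rno_circRNA_012089 they were −2.92, −2.55, −2.43 and −2.55 log2, again lowest in replicate 1, and every value was above that of rno_circRNA_012088 in the same rat. The m6A levels of the pair were 6.03% ± 2.65 and 12.4% ± 2.91 (SD, n = 4). Each was measured with its own probe, and probes can differ in response to the 2 dyes.

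Among the remaining listed members, the circRNA of LOC100360412 (rno_circRNA_006947) had a relative value of −2.59 ± 0.45 log2. That of Mnd1 (rno_circRNA_008556), a gene for a meiotic recombination factor, had −1.74 ± 0.39 log2 (SD, n = 4 each). The circRNA of RGD1310712 (rno_circRNA_000444), the one listed as hypomethylated, had m6A levels of 35.5%, 20.4%, 26.3% and 15.1% and a relative value of −1.47 ± 0.78 log2 (SD, n = 4). It varied the most between the MT rats, with replicate 1 nearest the median and replicate 4 farthest from it. It was the only listed member detected in both fractions on all 8 arrays. Its relative value was lower in MT than in NS by 0.29 ± 0.37 log2 (SE), which was not called (adjusted p = 0.72 by limma). The direction turned without MT replicate 4, at 0.020 log2. In NS its m6A level was 31.0% ± 6.04 (SD, n = 4). The 7 others had mean NS m6A levels between those of the Ttc3 circRNA at 2.67% and the Mnd1 circRNA at 17.3%, but IP was not well above background on 1 to 3 of the NS arrays and no test was made.

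**Figure D4:**
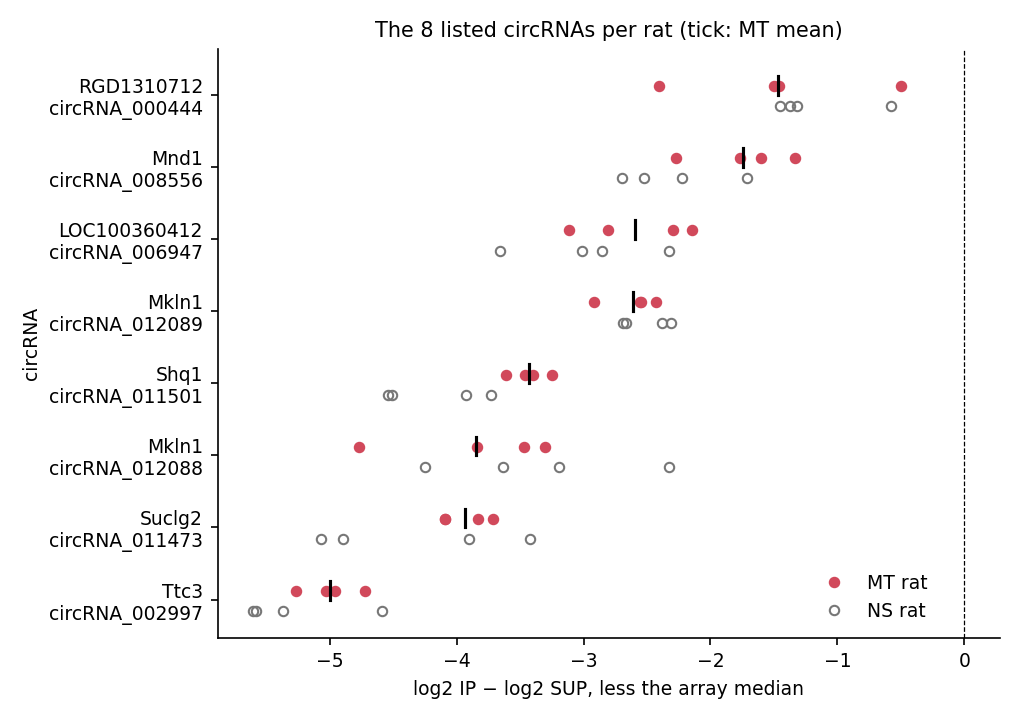
Relative value (log2 IP minus log2 SUP less the array median) of the 8 listed circRNAs that were members, in each MT rat (filled) and NS rat (open), with a tick at the MT mean. The filled points lie between −5.27 and −0.50, all below the array median (dashed line).

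To ask where the spread in the MT group differed from that after saline, the 11100 circRNAs detected in both fractions on all 8 arrays were used. The SD of log2 IP minus log2 SUP was 1.38, 1.24, 1.30 and 1.54 in the MT rats and 1.30, 1.36, 1.09 and 1.16 in the NS rats. The groups overlapped, and NS replicates 3 and 4 were the narrowest of all. The mean difference of 0.14 log2 was not past the threshold (exact two-sided permutation test, p = 0.20, adjusted p = 0.26 over 9 measures of the distribution, smallest possible p = 0.029). The range from the 10th to the 90th percentile was 3.46 log2 in MT and 3.01 in NS (exact permutation p = 0.17). The median m6A level was 46.0% ± 4.05 in MT and 50.1% ± 2.61 in NS (SD, n = 4 each; exact permutation p = 0.14). Without MT replicate 4 the difference in SD was 0.079 log2, and without NS replicate 3 it was 0.093 log2. The median SD between rats was nearly equal, at 0.275 log2 in MT and 0.270 log2 in NS. The channel that varied was not. The median SD was 0.24 log2 in IP and 0.24 log2 in SUP among the MT rats, but 0.15 log2 in IP and 0.28 log2 in SUP among the NS rats, a difference that was not tested. The IP value of the MT group rested on replicate 4, without which the median SD over the members was 0.15 log2 in IP and 0.21 log2 in SUP.

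**Figure D5:**
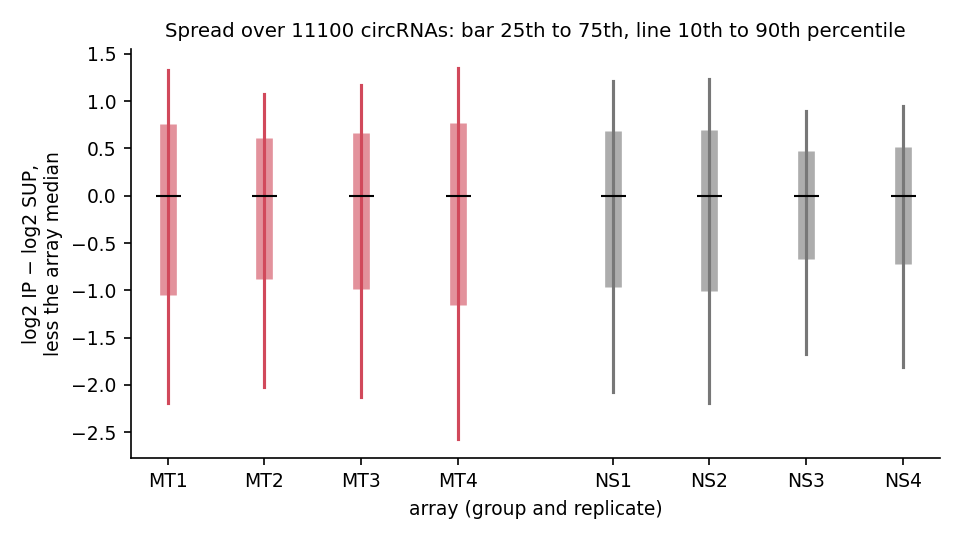
Spread of log2 IP minus log2 SUP, less the array median, over the 11100 circRNAs detected on all 8 arrays, with bars from the 25th to the 75th and lines from the 10th to the 90th percentile. MT4 is the widest (3.93 log2 from the 10th to the 90th percentile), NS3 the narrowest (2.56 log2), and the groups overlap.

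Most circRNAs called in MT lay on the same side of the median after saline. Of the 3088 called higher in MT and measured on all arrays, 2952 (95.6%) were above the median in all 4 NS rats, against 38.5% of all 11100. Of the 3544 called lower, 3203 (90.4%) were below it in all 4 NS rats, against 38.6% of all. Not one of the former and 1 of the latter was on the opposite side in every NS rat. The called circRNAs were chosen for lying far from the median and all 11100 were not, no test was made, and both groups used the same probes, dyes and slide. Across circRNAs, an MT and an NS array correlated at r = 0.832 to 0.957, a range that overlaps that of the MT pairs.

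No single circRNA was called different between MT and NS in its relative value by limma at an adjusted p under 0.05 and a fold of at least 1.5. The share called was 0% of 11100, and the lowest adjusted p was 0.34. Before adjustment, p was under 0.05 for 745 circRNAs higher and 647 lower in MT, together 12.5% of those tested. These counts depended on the setting, with 227 higher and 1116 lower with normexp, 387 and 368 without NS replicate 3, and 435 and 396 without NS replicate 4. The relative values of the groups did not overlap for 877 circRNAs, or 7.9%, of which 517 were higher and 360 lower in MT. The absolute difference had a median of 0.23 log2, and 932 circRNAs differed by at least 1.5-fold. On simulated data with 11100 circRNAs and the spread of these arrays, this test found 57% of shifts of 1 log2, so smaller differences may not have been detectable with 4 rats a group.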

How the data were processed

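The arrays were Arraystar Rat CircRNA Epitranscriptomic Arrays, and per the labels the scans were read with Agilent Feature Extraction 11.0.1.1. The authors deposited scans as spot intensities (background-subtracted and dye-normalized by that software) and a table of log2 values normalized with spike-in RNA. In these deposited log2 values each array and channel equals the log2 processed intensity less 1 constant. IP and SUP of a rat come from 1 scan. Each circRNA has 1 probe and 1 spot.

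CircRNAs well above background in both channels on all 4 MT arrays were kept. The members and lists were chosen with earlier results of these data known. IP and SUP of a rat share an array and were paired. Fits used limma 3.58.1 in R 4.3.3. The main fits of IP against SUP covered all 12893 circRNAs. That of MT against NS covered the 11100 well above background in both channels on all 8 arrays. The remaining steps used Python 3.11.15, pandas 2.3.3, numpy 2.4.6 and scipy 1.17.1. Named circRNAs are the 10 highest and 10 lowest called (2 of each by probe, fewer than first planned, since no host genes are paired), the 3 most variable, and the listed circRNAs, paired with a probe by their fold change and P in IP. The pairing therefore rests on these values. Gene lists by host gene could not be applied. On simulated data of 12893 circRNAs, the relative fit found 35.5% of 200 shifts of 1 log2, with 0 in the wrong direction and 2 false calls. Outlier marks fell on 50 spots of members on the MT arrays and were not used in the main setting. The number of arrays limits the precision.

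Alternatives were scaling by named spike-in probes, the 75th percentile, loess with Aquantile, normexp (offset 50) on the median signal, outlier marks, filters on dim probes, other fold thresholds, pairing, and leaving out each rat.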

Additional observations from a re-analysis of the deposited data

Results flagged for a closer look

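In groups of 4 rats, a sample was flagged when its gap to the nearest other sample was over 0.829 of the group's range, which chance alone gives in about 1 of 20 groups. Of 44 groups examined, 5 were flagged. The correlation of log2 IP minus log2 SUP with mean signal stood apart in MT replicate 4, at −0.10 against −0.14 to −0.13 in the other MT rats (gap 0.865 of the range). Replicate 4 was also far below the other MT rats in 1 of the 10 highest circRNAs, at 0.53 log2 relative to the array median against 3.29 to 3.66 (gap 0.883). It was likewise far below in 2 of the 10 lowest, at −6.11 against −5.35 to −5.22 (gap 0.856) and at −7.60 against −4.62 to −4.39 (gap 0.928). In the NS group, replicate 1 stood apart for rno_circRNA_000444, at −0.58 against −1.46 to −1.32 (gap 0.846).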

How the results depend on the processing

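On the deposited scale, the 2274 members with IP higher became 1202 with the named spike-in probes, 4378 with the 75th percentile, 4010 with loess and Aquantile, 629 with normexp and 984 at a fold of at least 2. Leaving out 1 rat gave 1564 to 2563. The mean of the array medians turned from −0.24 to 0.30 with the 75th percentile and to 0.24 with loess and Aquantile, by the construction of these scalings. Relative to the array median, 3116 members with IP higher became 1668 at a fold of at least 2, and no other alternative moved a count of relative calls by over 1.5 times. Scaling by spike-in probes or the 75th percentile cannot change relative calls, since centring removes a constant. With loess and Aquantile 92.7% of the higher and 97.9% of the lower calls remained, and with normexp 35.7% and 75.4%. Leaving out 1 rat gave 2873 to 3165 higher and 3409 to 3670 lower. The mean SD over members was 0.91 log2 with normexp, whose offset compresses ratios, and 1.31 to 1.41 log2 without 1 rat. Treating IP and SUP as unpaired (no replicate block) left 3058 higher and 3457 lower. Across MT and NS, arrays of the same replicate number were not treated as pairs. The labels tie them by number alone, and their deviations correlated at 0.39, −0.41, 0.22 and 0.11, with 2 of the 4 correlating best with their own number. A replicate block kept the count called between MT and NS at 0, with 712 higher and 738 lower at an unadjusted p under 0.05 and a lowest adjusted p of 0.37. That count was 0 in all alternatives run, with a lowest adjusted p between 0.12 (without MT replicate 4) and 0.73 (without NS replicate 3). The relative values of the 31 single circRNAs and the MT against NS difference of rno_circRNA_000444 were recomputed 479 times, and 471 kept direction and call. The most variable circRNA was 0.72 log2 with normexp and 0.71 log2 without MT replicate 4. The next was −0.41 without MT replicate 2 and −0.07 without replicate 3, and the one after it was −0.13 without replicate 2. Leaving out 1 rat gave −1.04 to 0.71, −0.41 to 1.15 and −0.13 to 1.36 log2 for these in that order, and the last 2 were called without replicate 4. The difference of rno_circRNA_000444, −0.29 log2, was −0.61 to 0.020 log2 when 1 rat was left out, highest without MT replicate 4. The cause of these shifts was not tested. Precision was lowest in the dimmest of 10 signal classes, where the SD between rats was 0.41 log2.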

Other observations

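The arrays also hold 50 probes for linear transcripts, each in 10 spots, of which 30 could be named through RefSeq. On all 4 MT arrays 28 of the 50 were well above background in most spots in both fractions, 16 of them named. Their relative values, on the scale of the circRNAs, had a median of 0.97 log2, and 20 of the 28 lay above the circRNA median in all 4 rats and 6 below it in all 4. Of the 11273 circRNA members, 4383 lay above it in all 4 rats and 4492 below it. The 28 are the probes that passed detection in both fractions, and no test was made. Fgf2, which encodes a fibroblast growth factor, stood at 2.24, 1.57, 2.13 and 2.69 log2. Map2, which encodes a dendritic microtubule-associated protein, stood at 1.78, 2.06, 1.91 and 1.73 log2, and its mean level was 75.5%. Dlg4, which encodes the postsynaptic scaffold PSD-95, stood at 0.76, 0.69, 0.64 and 0.26 log2. At the other end, Ldha, which encodes a lactate dehydrogenase subunit, stood at −1.49, −1.11, −1.01 and −2.43 log2, and Med16, a Mediator subunit gene, at −1.45, −0.93, −0.97 and −1.57 log2. RNase R was used on both fractions, and how much linear RNA was left is not known.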
